A study of Mus musculus with 6 samples.

Results

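The p53 target and growth arrest genes examined here were Cdkn1a, Gadd45a, Gadd45b, Mdm2, Ccng1, Bbc3, Bax, Phlda3, Trp53inp1 and Eda2r, chosen by symbol, and all 10 were among the 23282 gene rows of each count file. Brown adipose tissue (BAT) of 6 male C57BL/6N mice aged 5 weeks was profiled by QuantSeq, a bulk RNA-seq assay that reads the 3′ end of each transcript. There were 3 wild-type (WT) mice and 3 Letmd1 KO mice, and each library came from 1 mouse. The KO mice carried a knockout-first allele from a single embryonic stem cell clone, in which a lacZ and neomycin resistance cassette in an intron of Letmd1 disrupted the gene constitutively in the whole body, so the loss was not limited to brown adipocytes or to the adult. LETMD1 is a mitochondrial protein of brown adipocytes, and early work on its gene concerned cancer cells. The comparison asked how the transcripts of the p53 response stood in BAT without it.

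The p53 protein is a transcription factor that is kept scarce by the ubiquitin ligase MDM2 and is stabilised when DNA damage, ribosomal stress or other insults weaken that hold. It then activates genes that stop the cell cycle, that trigger death through the mitochondria, and that feed back on p53 itself, Mdm2 among them. Several of the same genes are known to answer other stress factors too: Gadd45a and Bbc3 can be induced through the ATF4 and CHOP arm of the integrated stress response, which mitochondrial faults can set off, and Gadd45b through NF-κB.

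Letmd1 was counted 5658, 6490 and 5266 times in the 3 WT libraries and 0, 0 and 1 times in the 3 Letmd1 KO libraries, which matched the labels. Total counts ranged from 6669577 to 14574273 per library, and 3 counts, taken as the detection floor, were worth 0.176 to 0.397 CPM. CPM are counts per 1000000 counts of the library, here with the library size scaled by TMM factors, which were 0.852 to 0.886 in WT and 1.13 to 1.17 in Letmd1 KO libraries, and since reads come from the transcript end they are not divided by length. Of 12995 genes tested, 46.0% differed between genotypes with the edgeR quasi-likelihood test at an adjusted p under 0.05, 23.7% being higher and 22.3% lower in Letmd1 KO BAT, so that a share of called members near these values is not a result about them. The 10 brown adipocyte markers summed to 42940 to 48560 CPM in WT and 14310 to 17870 CPM in Letmd1 KO BAT, and 9 of the 10 were lower in KO. Fabp4 alone had a mean of 28020 CPM in WT and 10462 CPM in KO BAT, so the sum does not by itself check the tissue label. With so many genes moving, each member is given mouse by mouse, and the p-values measure only the spread between these 6 animals.

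Of the 10 members, 4 rose in Letmd1 KO BAT (Gadd45a, Eda2r, Bax and Bbc3), 2 fell (Phlda3 and Ccng1) and 4 did not pass the test (Gadd45b, Cdkn1a, Mdm2 and Trp53inp1). The median log2 fold change of the 10 was 0.45, against 0.03 over all genes tested, and 7 of the 10 were positive. The same 4 and 2 genes were those whose values did not overlap between genotypes, a state that 30.1% of all genes tested reached with KO higher and 27.2% with KO lower. The shares rest on 10 genes only, and the response was split: the members spanned log2 fold changes from -1.56 to 5.19. The members, and the gene lists below, were chosen with earlier results of these data known. Their medians and shares beside those of all genes are therefore a description and not an independent comparison. In bulk tissue, fewer cells of a type and less RNA per cell cannot be told apart for any of these values.

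**Figure D1:**
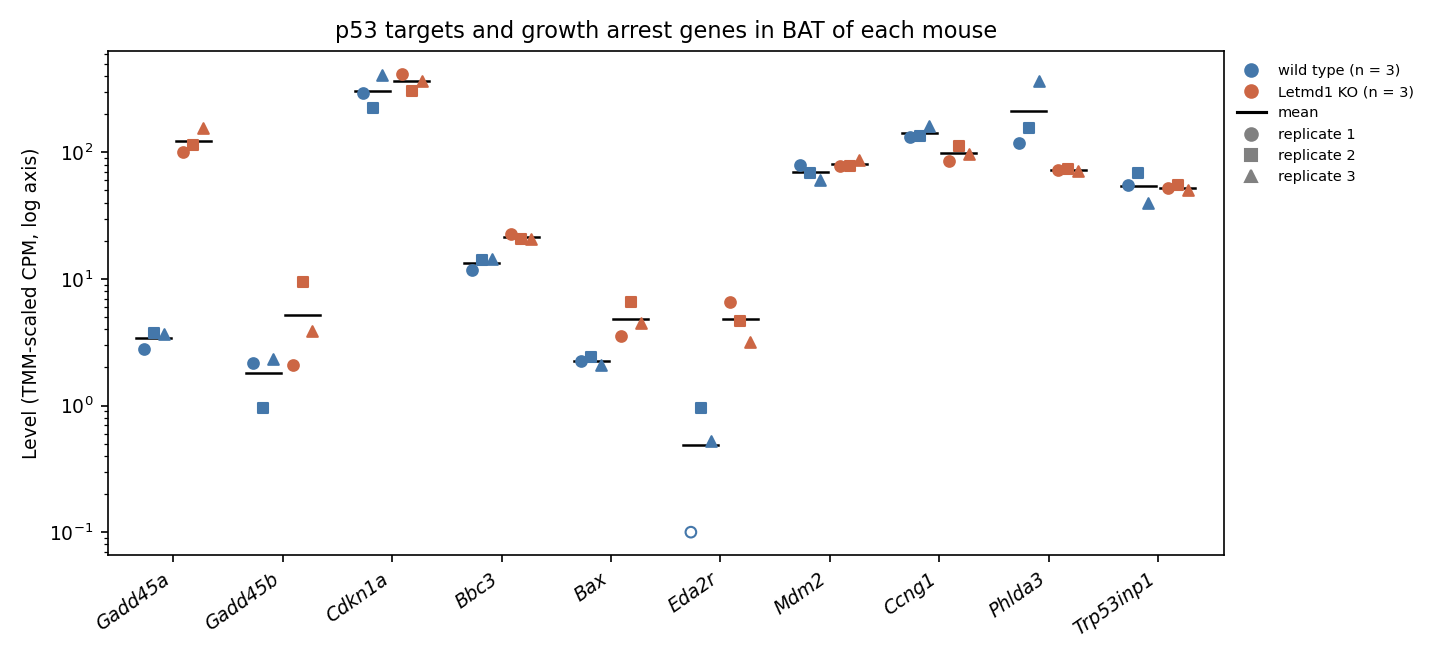
Level of each member in each mouse, in CPM on a log axis, with colour for genotype, shape for replicate and a bar at each group mean. Gadd45a moved from 2.80 to 3.71 CPM in WT mice to 102 to 156 CPM in Letmd1 KO mice, whereas Cdkn1a points of both genotypes overlapped; the hollow point for Eda2r in WT mouse 1 stands for 0 counts, drawn at 0.1 CPM.

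The binding sequence of p53 is known to be 2 copies of a 10-base element with a short spacer, and RefSeq promoter windows on GRCm38.p6, from 250 bases before to 50 bases after each start site, were searched on both strands for it with no mismatch and a spacer of up to 13 bases. Windows were at hand for 9 of the 10 members; Trp53inp1 had none. The full element was in the window of Cdkn1a alone among the members, and in 24 of all 32851 windows (0.0731%). Pairs with a mismatch were not sought, so the stretch marked in Cdkn1a need not be the one that p53 binds. A single 10-base element was in the windows of 5 of the 9 members, Bax, Ccng1, Cdkn1a, Gadd45a and Mdm2, and in the windows of 9.55% of all genes; the full and the single search overlap in Cdkn1a. These stretches are shown because they set the promoters of the member that did not pass the test with the highest level, Cdkn1a, beside the one that rose most, Gadd45a, with the match in capitals, read 5′ to 3′ along the gene's strand:
Cdkn1a, chr17:29090891-29090952, + strand, match from -73 to -42: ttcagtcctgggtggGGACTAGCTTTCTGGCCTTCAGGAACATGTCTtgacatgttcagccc
Gadd45a, chr6:67037423-67037462, - strand, match from -40 to -31: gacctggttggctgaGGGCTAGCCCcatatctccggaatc
Bax, chr7:45467075-45467114, - strand, match from -201 to -192: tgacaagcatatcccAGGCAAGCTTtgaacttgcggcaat
Mdm2, chr10:117710920-117710959, - strand, match from -186 to -177: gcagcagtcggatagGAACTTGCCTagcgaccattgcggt
Ccng1, chr11:40755447-40755486, - strand, match from -185 to -176: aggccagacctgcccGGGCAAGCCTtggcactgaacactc

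Of the 5 genes printed, Gadd45a and Bax rose, Ccng1 fell, and Cdkn1a and Mdm2 did not pass the test, so that a match in the window went with each of these outcomes. A second search, for the ATF4 composite element in the exact form TGATGNAAT on both strands, found it in no member's window and in 0.965% of all windows. At so low a share a match in the few member windows was unlikely beforehand, and forms that differ by a base were not sought. These are letter matches in a window that stops 250 bases before the start site, and they say nothing of sites in introns or farther away.

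Gadd45a, at chr6:67035096-67037457 on the minus strand of GRCm38, encodes a small acidic protein that binds PCNA, inhibits the mitotic kinase CDK1 and activates the p38 and JNK pathway kinase MAP3K4. It was at 2.80, 3.71 and 3.65 CPM in the 3 WT mice, from 26, 35 and 28 counts, and at 102, 114 and 156 CPM in the 3 Letmd1 KO mice, from 924, 859 and 2654 counts. Every KO mouse stood far above every WT mouse, and KO mouse 3 was the highest. The mean rose 36.5-fold, from 3.39 ± 0.508 to 124 ± 28.6 CPM (SD, n = 3 mice per genotype), with a log2 fold change of 5.19 (SE 0.22, adjusted p = 1.22e-06, edgeR). That put it 72nd from the top of 12995 genes by log2 fold change. In WT BAT 18.6% of the tested genes had a lower mean level than Gadd45a, and in Letmd1 KO BAT 89.7% did.

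The noncoding gene E230016M11Rik lies across Gadd45a on the opposite strand, and use of strand in counting was not given in the sources used here. It had 9, 5 and 5 counts in WT and 8, 9 and 20 counts in Letmd1 KO libraries, and it does not reach the last 500 bases of Gadd45a, where 3′ reads fall. Gadd45a stayed past the threshold in each alternative that was run, with log2 fold changes from 4.81 to 5.61.

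The genes whose course over the 6 mice lay nearest to that of Gadd45a, by the root mean square difference of log2 CPM centred on the WT mean, were Ostn (0.20), Raet1c (0.31), Raet1e (0.34), Greb1 (0.36) and Dlg2 (0.37). Ostn, which encodes the secreted peptide osteocrin, had 0 counts in each WT mouse and 65, 48 and 156 counts in the Letmd1 KO mice. Dlg2, a synaptic scaffold gene, had 2, 3 and 1 counts in WT and 170, 117 and 293 counts in Letmd1 KO mice. Raet1c and Raet1e, which encode ligands of the natural killer cell receptor NKG2D, are near-identical copies whose reads may be shared, so their separate values are uncertain. All 5 had at most 3 counts in any WT mouse, and their distance from Gadd45a depends on the prior count of 2 used for log2 CPM.

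The other GADD45 genes took other courses. Gadd45b, at chr10:80930073-80932204 on the plus strand, is a stress gene of NF-κB and TGF-β signalling and was at 2.16, 0.954 and 2.35 CPM in WT and 2.09, 9.53 and 3.88 CPM in Letmd1 KO mice. KO mouse 1 lay inside the WT range and KO mouse 2 was the highest. Its log2 fold change was 1.49 (SE 0.58, 95% interval 0.18 to 2.79) and did not pass (adjusted p = 0.0626, edgeR); it was 0.75 without KO mouse 2 and 0.69 with quantile normalization (adjusted p = 0.323). It passed without KO mouse 1 (1.85, adjusted p = 0.0289), with library size alone (1.90, adjusted p = 0.0177), with DESeq2 (adjusted p = 0.0269) and with no low-count filter (adjusted p = 0.0418).

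Gadd45g, the third gene of the family, is known in BAT as a cold-induced gene. It was at 352, 204 and 308 CPM in WT and at 116, 135 and 86.0 CPM in Letmd1 KO mice, with no overlap. It fell by 1.36 on the log2 scale (SE 0.22, adjusted p = 0.000966, edgeR). By CPM, Gadd45g was thus the highest of the GADD45 genes in WT BAT. In Letmd1 KO BAT Gadd45a and Gadd45g stood at 124 ± 28.6 and 112 ± 24.7 CPM (SD, n = 3), values closer than their spread. Levels of different genes also depend on how well the annotation, which was not given, covers each 3′ end.

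A ratio of counts within a library does not depend on scaling between libraries. The log2 ratio of Gadd45a to Gadd45b was 0.36, 1.85 and 0.61 in WT and 5.53, 3.56 and 5.31 in Letmd1 KO libraries. The ranges did not overlap, and the difference of 3.86 had p = 0.1 in a two-sided exact permutation test, the smallest value that 3 against 3 mice allow (0.2 adjusted over 4 ratios).

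**Figure D2:**
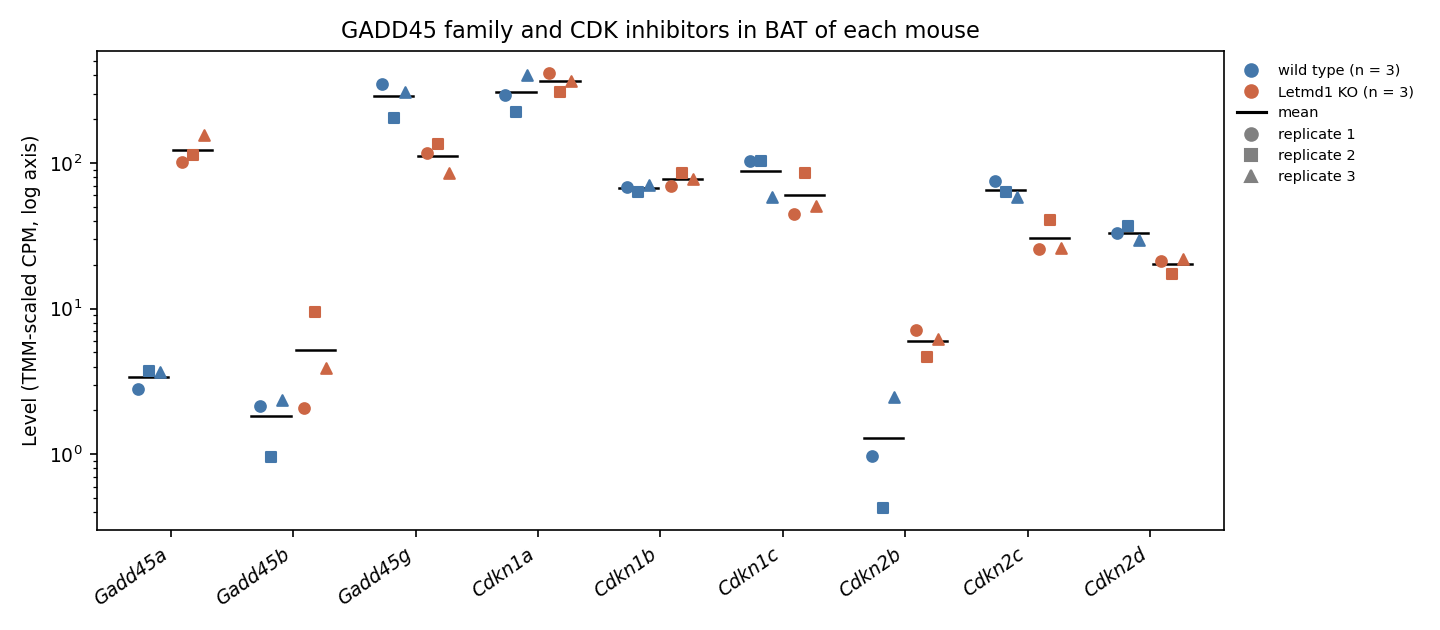
Level in each mouse, in CPM on a log axis, of the 3 GADD45 genes and of genes for inhibitors of cyclin-dependent kinases, WT and Letmd1 KO in separate colours with a bar at each group mean. Gadd45a rises from 3.39 to 124 CPM while Gadd45g falls from 288 to 112 CPM, and Cdkn1a, Cdkn1b and Cdkn1c points of both genotypes overlap.

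GADD45 proteins act through p38 and JNK kinases. Of 8 tested genes for those partners, 0 rose and 3 fell: Map2k3 (-0.62), Mapk14, which encodes p38α (-0.49), and Mapk9, which encodes JNK2 (-0.42), all as log2 fold changes by the edgeR test; at an unadjusted p under 0.05 it was 0 and 5, DESeq2 also called 0 and 3, and limma after quantile normalization 0 and 4. The list's median was -0.41, against 0.03 over all genes tested. With library size alone as the scale it was 0.01, against 0.45 over all genes, of which 45.4% rose and 10.5% fell. On that scale 2 of the 8 rose and 0 fell, and Map2k3 (-0.20), Mapk14 (-0.07) and Mapk9 were not called. With the muscle level of each mouse as a covariate 0 rose and 1 fell. Mapk14 also lost its call without KO mouse 1.

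Cdkn1a, at chr17:29090976-29100727 on the plus strand, encodes p21, the inhibitor of cyclin-dependent kinases through which p53 halts division, and is among the most used readouts of p53. It was already high in WT BAT, where 95.6% of genes tested had a lower level. WT mice had 295, 225 and 405 CPM and Letmd1 KO mice 418, 307 and 364 CPM. WT mouse 3 was above 2 of the KO mice, and the genotypes overlapped. Its log2 fold change of 0.24 (SE 0.21, 95% interval -0.22 to 0.70) did not pass (adjusted p = 0.374, edgeR). Single mice moved the value: it was 0.04 without WT mouse 2, 0.12 without KO mouse 1 and 0.47 without WT mouse 3, none of which passed.

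The call on Cdkn1a depended on the scale: it passed with library size alone (0.67, where the median of all genes was itself 0.45) and with quantile normalization and limma (0.63, adjusted p = 0.0262, where the median of all genes was -0.05). Quantile normalization is the procedure the study's methods name for its read counts.

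The other genes for inhibitors of cyclin-dependent kinases split. Cdkn2b, which encodes p15, was at 0.970, 0.424 and 2.48 CPM in WT and at 7.14, 4.63 and 6.18 CPM in Letmd1 KO mice and rose by a log2 fold change of 2.25 (SE 0.52, adjusted p = 0.00635, edgeR). Cdkn2c, which encodes p18, fell from 65.7 ± 8.22 to 30.8 ± 8.55 CPM (SD, n = 3; log2 fold change -1.10, adjusted p = 0.00148, edgeR). Cdkn2a, which encodes p16 and ARF and marks senescent cells, was too low to test, with 0 counts in each WT library and 5, 1 and 10 counts in the Letmd1 KO libraries.

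The further genes of that family, named here after their values were seen so as to complete it, were Cdkn1b (p27; 0.20, adjusted p = 0.183), Cdkn1c (p57; -0.56, adjusted p = 0.121) and Cdkn2d (p19; -0.71, adjusted p = 0.00441, not called with library size alone), all log2 fold changes from the edgeR test. Over the whole list of cyclin-dependent kinase inhibitors and growth arrest genes, 17 of 20 were tested, 2 rose (11.8%) and 6 fell (35.3%), with a median log2 fold change of -0.56. The counts depended on the scale, though the list's median stayed below that of all genes. With library size alone it was 5 higher, 4 lower and a median of -0.15. The median of all genes was then 0.45, with 45.4% of them higher and 10.5% lower. With quantile normalization it was 3 higher, 6 lower and a median of -0.29, against -0.05 over all genes. Without WT mouse 3 it was 3 higher, 7 lower and -0.37. The second that rose was Gas6 (1.72), the ligand of the TAM receptors, and the one that fell most was Foxo1 (-1.69), a transcription factor held in check by insulin through AKT.

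Genes of dividing cells were higher in Letmd1 KO BAT. Of 20 proliferation genes 18 rose and 0 fell with edgeR (0 fell at an unadjusted p under 0.05; 0 fell with DESeq2 or limma), with a median log2 fold change of 2.05, from low levels: Top2a, the topoisomerase of dividing cells, was at 2.37, 2.76 and 2.09 CPM in WT and 44.3, 35.2 and 25.7 CPM in Letmd1 KO mice (3.85). Aurkb had 0, 0 and 4 counts in WT and 25, 25 and 36 counts in KO mice, and Bub1 had 2, 0 and 0 against 15, 12 and 24. Both encode mitotic kinases, and no fold is given for counts so low.

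Among 9 tested genes for D-type cyclins, their kinases and E2F transcription factors, 4 rose and 1 fell, with Ccnd2 (2.64), E2f1 (2.14) and Ccnd1 (1.97) the highest and Ccnd3 (-0.59, but -0.17 and not called with library size alone) the one that fell, as log2 fold changes. The 10 macrophage markers, all higher in Letmd1 KO BAT, summed to 191 to 260 CPM in WT and 1461 to 2601 CPM in KO mice, and the 8 fibroblast and progenitor markers, also all higher, to 2157 to 2857 and 5878 to 10190 CPM. Which cells held the proliferation transcripts was not tested.

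Mdm2, at chr10:117688875-117710758 on the minus strand, is the p53 target that closes the feedback loop. WT mice had 79.8, 68.8 and 61.0 CPM and Letmd1 KO mice 78.5, 78.1 and 87.2 CPM. WT mouse 1 lay above 2 of the KO mice, so the groups overlapped. A log2 fold change of 0.22 (SE 0.12, 95% interval -0.06 to 0.50) did not pass (adjusted p = 0.183, edgeR) and was 0.12 without WT mouse 3; it passed with library size alone (0.64) and with quantile normalization (0.38, adjusted p = 0.0305).

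Mdm4, the partner of Mdm2 that blocks p53 without degrading it, differed by 0.19 (adjusted p = 0.317, edgeR). The log2 ratio of Mdm2 to Mdm4 was 0.51, 0.61 and 0.64 in WT and 0.44, 0.62 and 0.75 in KO mice, a difference of 0.016 (p = 0.9, two-sided exact permutation test).

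Trp53, the gene for p53 itself, was at 4.53, 7.0 and 6.13 CPM in WT and at 19.0, 19.6 and 17.4 CPM in Letmd1 KO mice. All KO mice were above all WT mice, and the log2 fold change was 1.66 (SE 0.21, adjusted p = 0.000214, edgeR). Since p53 is governed mainly through the stability of the protein, its transcript is not a measure of its activity. Of 16 tested genes for p53 and its regulators, 3 rose (18.8%) and 2 fell (12.5%), with a median of 0.18: with Trp53, Atr, a DNA damage kinase gene (0.78), and Rpl5, whose ribosomal protein can bind MDM2 (0.60), rose, while Hipk2, a kinase gene for p53 (-0.84), and Ep300, for an acetyltransferase (-0.35), fell. Ep300 did not pass with quantile normalization (-0.26) or library size alone, where it turned to 0.07, nor without KO mouse 1 or any 1 WT mouse. With library size alone 10 of the 16 rose and 1 fell, with a median of 0.60. Over all genes that scale gave a median of 0.45, with 45.4% higher and 10.5% lower. Without WT mouse 3 the list's median was 0.07, with 3 higher and 1 lower. Trp63 and Trp73, the p53 family genes, had no counts in any library.

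Ccng1, at chr11:40748552-40755311 on the minus strand, encodes cyclin G1, which recruits the phosphatase PP2A to MDM2 and is a target that p53 switches on in most tissues. WT mice had 133, 134 and 161 CPM and Letmd1 KO mice 86.2, 111 and 96.9 CPM. Each KO mouse was below each WT mouse. Its mean went from 143 ± 15.8 to 98.1 ± 12.7 CPM (SD, n = 3), so that it fell by 0.54 on the log2 scale (SE 0.13, adjusted p = 0.00819, edgeR). The fall did not pass with library size alone (-0.12) or with quantile normalization (-0.34, adjusted p = 0.0559).

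Trp53inp1, at chr4:11156431-11174379 on the plus strand, encodes a stress protein that acts with p53 and in autophagy. It was at 55.6, 68.3 and 39.6 CPM in WT and at 52.1, 55.6 and 50.3 CPM in Letmd1 KO mice, with the KO values inside the WT range. The log2 fold change was -0.05 (SE 0.18, 95% interval -0.46 to 0.35, adjusted p = 0.834, edgeR) and its sign turned with the scale.

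Phlda3, at chr1:135766119-135769136 on the plus strand, encodes a pleckstrin homology protein that p53 induces and that keeps AKT from the membrane. It fell: WT mice had 119, 157 and 364 CPM and Letmd1 KO mice 72.4, 73.6 and 70.7 CPM. The KO mice were tightly grouped, with a coefficient of variation of 2.01% against 61.9% in WT, where mouse 3 stood apart. The log2 fold change of -1.56 (SE 0.35, adjusted p = 0.00557, edgeR) was -0.95 without WT mouse 3 and still passed (adjusted p = 0.000601).

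**Figure D3:**
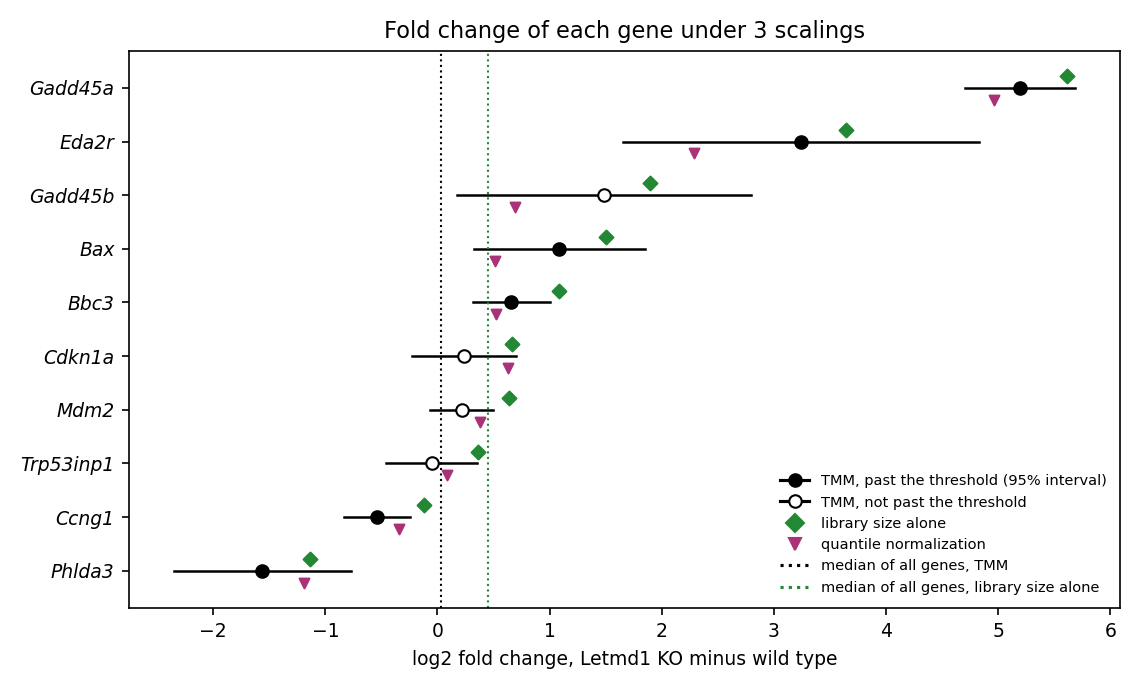
Log2 fold change of each member, Letmd1 KO minus WT, with TMM scaling (circles, with the 95% interval of the edgeR fit; filled where it passed), library size alone (diamonds) and quantile normalization (triangles). Dotted lines mark the median of all genes, 0.03 with TMM and 0.45 with library size alone. The interval of Gadd45a runs from 4.70 to 5.68, those of Cdkn1a, Mdm2 and Trp53inp1 cross 0, and those of Ccng1 and Phlda3 lie below 0.

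The 2 death genes among the members rose modestly. Bbc3, at chr7:16308393-16318205 on the plus strand, encodes PUMA, a BH3-only protein that disarms the survival members of the BCL2 family. It was at 11.9, 14.1 and 14.5 CPM in WT and at 22.5, 20.5 and 20.8 CPM in Letmd1 KO mice. The groups did not overlap, and the 1.58-fold rise corresponded to a log2 fold change of 0.66 (SE 0.15, adjusted p = 0.00657, edgeR).

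Bax, at chr7:45461697-45466898 on the minus strand, encodes a pore-forming protein of the mitochondrial outer membrane. Counts were low: 21, 23 and 16 in WT and 32, 50 and 76 in Letmd1 KO libraries, or 2.26, 2.44 and 2.09 CPM against 3.52, 6.62 and 4.47 CPM. KO mouse 2 was the highest and each KO mouse was above each WT mouse. Bax had a log2 fold change of 1.09 (SE 0.34, adjusted p = 0.0266, edgeR), a call that was lost when any library but KO mouse 1 was left out, with adjusted p from 0.0545 to 0.0974, and with quantile normalization (adjusted p = 0.194). The predicted gene Gm45808 overlaps Bax on the same strand, though not over its last 500 bases.

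Other genes of the BCL2 family moved in both directions. Of 21 tested BCL2 family and caspase genes 6 rose (28.6%) and 4 fell (19.0%), with a median log2 fold change of 0.06. With library size alone it was 10 and 2 (0.48), where the median of all genes was 0.45, with 45.4% higher and 10.5% lower. Bid, which encodes the BH3-only protein that caspase-8 cuts, was at 2.80, 2.12 and 2.35 CPM in WT and at 42.4, 36.1 and 47.2 CPM in Letmd1 KO mice (log2 fold change 4.11, adjusted p = 1.98e-06, edgeR). Bak1, which encodes the other pore-forming protein, went the opposite way to Bax, from 67.2, 78.0 and 74.7 CPM to 24.4, 20.5 and 25.3 CPM (-1.64, adjusted p = 2.06e-05).

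By CPM, Bak1 stood above Bax in both genotypes, at 73.3 ± 5.57 against 2.26 ± 0.176 CPM in WT BAT (SD, n = 3). In Letmd1 KO BAT the values were 23.4 ± 2.56 against 4.87 ± 1.59 CPM. The annotation used in counting was not given, so how well it covers the 3′ end of each gene is unknown. Levels of different genes may therefore not be comparable. The survival gene Bcl2 rose from 10.3, 7.0 and 10.4 CPM to 31.3, 33.9 and 39.1 CPM (1.91, adjusted p = 5.55e-05, edgeR), while the survival gene Bcl2l1 differed by -0.08 (adjusted p = 0.833). Bcl2a1b rose by 4.07, though it belongs to a cluster of near-identical copies and its own share is uncertain. Cycs, which encodes cytochrome c, the protein released through the pores, fell by 1.32 on the log2 scale, and Bnip3, a mitophagy receptor gene, fell by 0.90, all by the same test. The fall of Bnip3 did not pass with library size alone (-0.49) or quantile normalization (-0.56), nor without KO mouse 1, WT mouse 1 or WT mouse 2.

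The log2 ratio of Bax to Bcl2 was -2.14, -1.48 and -2.25 in WT and -3.12, -2.33 and -3.11 in Letmd1 KO mice. It was lower in each KO mouse than in any WT mouse, with a difference of -0.90 (p = 0.1, the smallest possible, two-sided exact permutation test, 0.2 adjusted over the 4 ratios). The log2 ratio of Bbc3 to Bcl2l1 differed by 0.65 with overlap between genotypes (p = 0.4, exact permutation test).

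**Figure D4:**
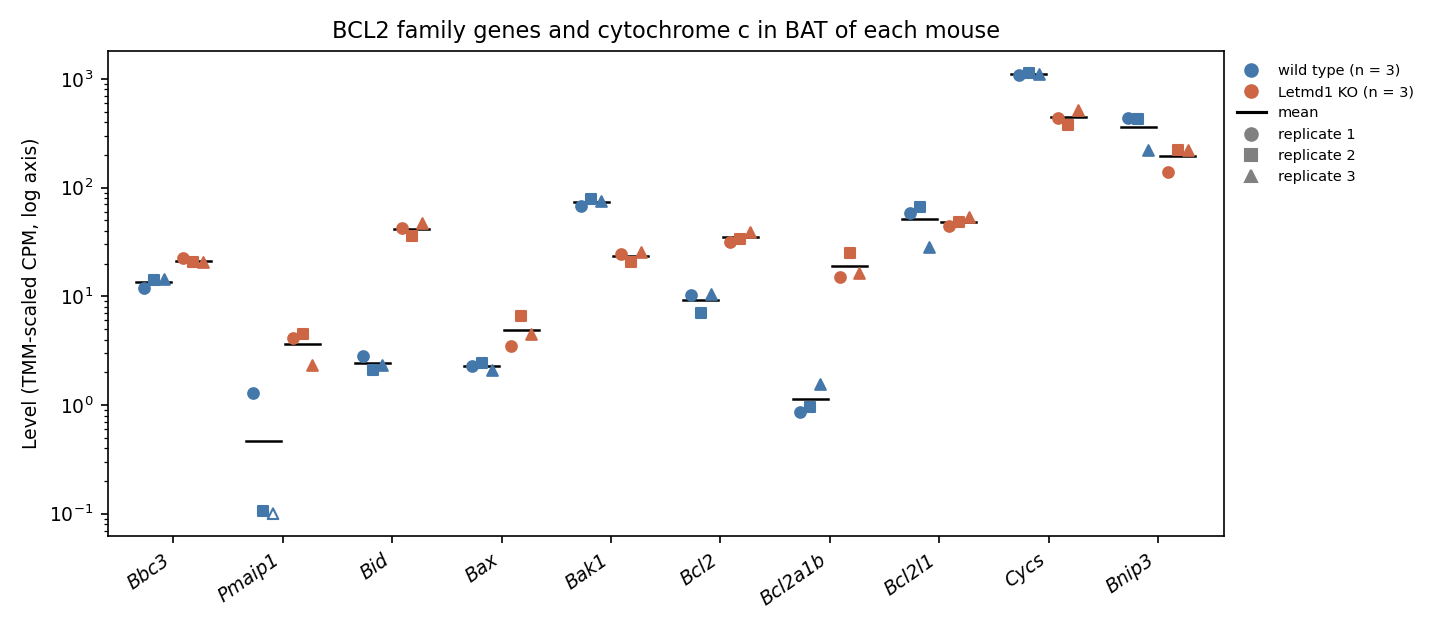
Level in each mouse of BCL2 family genes and Cycs, in CPM on a log axis, WT and Letmd1 KO in separate colours with a bar at each group mean. Bax rises from 2.26 CPM in WT to 4.87 CPM in Letmd1 KO BAT, Bak1 falls from 73.3 to 23.4 CPM, and Bid and Bcl2 rise. The hollow point for Pmaip1 in WT mouse 3 stands for 0 counts, drawn at 0.1 CPM.

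Eda2r, at chrX:97333840-97377216 on the minus strand, encodes XEDAR, the receptor of the TNF family that binds the A2 form of ectodysplasin and signals to NF-κB and JNK, and is a p53 target. It was near the detection floor in WT BAT, with 0, 9 and 4 counts, and had 60, 35 and 54 counts in Letmd1 KO mice. In CPM these were 0, 0.954 and 0.522 against 6.59, 4.63 and 3.18, so each KO mouse was above each WT mouse. The log2 fold change of 3.24 (SE 0.70, 95% interval 1.65 to 4.83, adjusted p = 0.00485, edgeR) rests on 13 WT counts in all. Even in Letmd1 KO BAT 18.9% of genes tested had a lower level, so the gene was still a minor transcript.

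Its ligand gene Eda was at 6.79, 4.13 and 4.69 CPM in WT and 3.63, 2.91 and 3.94 CPM in Letmd1 KO mice, with a log2 fold change of -0.56 that did not pass (adjusted p = 0.161, edgeR). Of 8 tested genes for the ligand and the signalling chain 4 rose and 0 fell with edgeR, with a median of 0.51 (0 fell at an unadjusted p under 0.05), among them Traf1 (2.48), Nfkb2 (0.92) and Traf2 (0.59), which encode adaptors and an NF-κB subunit. The count depended on the fit: 2 rose and 0 fell with DESeq2, and 3 rose and 1 fell with limma. With library size alone 7 rose, where 45.4% of all genes rose. With the muscle covariate 1 rose, and 2 or 3 rose when any 1 mouse was left out, 3 only without WT mouse 1. Traf2 lost its call whichever library was left out (adjusted p from 0.0522 to 0.0873). The ectodysplasin A1 receptor gene Edar and its adaptor gene Edaradd were too low to test.

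The wider p53 target list held 35 genes besides the members, of which 29 were tested. In Letmd1 KO BAT 12 rose (41.4%) and 4 fell (13.8%), with a median log2 fold change of 0.50. With library size alone it was 18 and 1 (median 0.92), where the median of all genes was 0.45, with 45.4% higher and 10.5% lower. It was 10 and 2 (0.25) with quantile normalization and 6 and 3 with the muscle covariate. Without WT mouse 1, 8 of 30 rose and 3 fell. Those that rose most were Plk2, a polo-like kinase gene, from 3.20 ± 0.374 to 24.0 ± 3.82 CPM (SD, n = 3; 2.90, adjusted p = 1.26e-05, edgeR), Pmaip1, which encodes the BH3-only protein NOXA (2.87, adjusted p = 0.018), and Gtse1, a gene of the G2 phase (2.57, adjusted p = 0.00756).

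Pmaip1 had 12, 1 and 0 counts in WT and 38, 34 and 40 counts in Letmd1 KO libraries. Its call was lost when either KO mouse 1 or WT mouse 2 was left out. The genes that fell most were Ei24 (-0.86), a gene of autophagy and the endoplasmic reticulum, Gpx1 (-0.79), which encodes glutathione peroxidase 1, and Ak1 (-0.73), which encodes adenylate kinase 1. Gpx1 did not pass with library size alone (-0.37) or quantile normalization (-0.42), nor Ak1 with library size alone (-0.31) or without KO mouse 1 (-0.58).

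Genes of the integrated stress response, measured beside the members, rose in 10 of 13 cases and fell in 1, with a median log2 fold change of 1.83. Gdf15, a stress hormone gene, had 4, 1 and 2 counts in WT and 1895, 1970 and 3663 counts in Letmd1 KO libraries (9.68). Trib3, a pseudokinase gene downstream of ATF4, rose from 9.49, 5.19 and 8.21 CPM to 379, 333 and 435 CPM (5.65), and Atf3, a stress transcription factor gene, rose by 4.93. Cebpb, the partner factor gene, fell (-1.13). Whether p53, ATF4 or another factor moved any member was not tested.

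**Figure D5:**
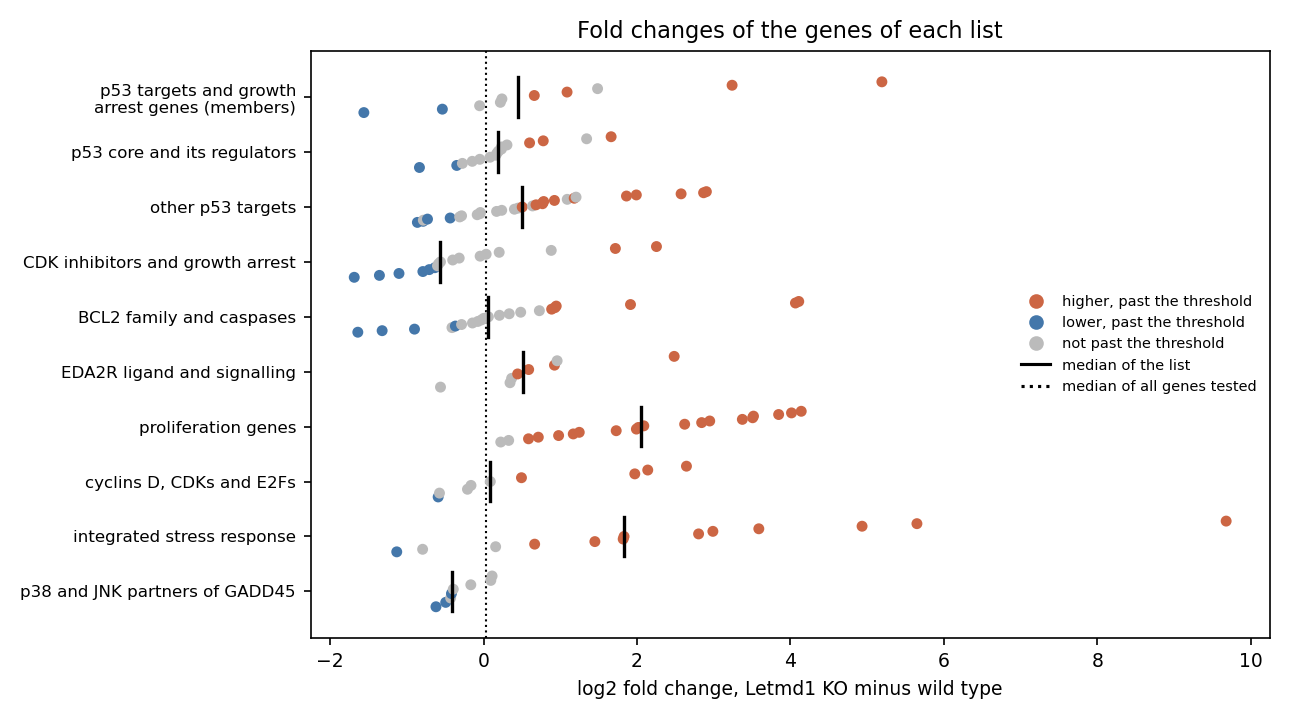
Log2 fold change, Letmd1 KO minus WT, of each tested gene in the members and in each pathway list, with one point per gene, coloured by whether it passed the test, a bar at the list's median and a dotted line at the median of all genes. The medians run from -0.56 for cyclin-dependent kinase inhibitors and growth arrest genes to 2.05 for proliferation genes, and the members' median is 0.45.

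Transcripts of other cells in the dissected tissue varied between mice, and the summed skeletal muscle markers overlapped between genotypes. Skeletal muscle markers, of which 3 of 14 tested passed as higher and 0 as lower with edgeR (0 lower at an unadjusted p under 0.05; 1 higher with DESeq2 and 10 with limma, 0 lower with either), summed to 85.6, 523 and 98.1 CPM in WT and 480, 374 and 1368 CPM in Letmd1 KO mice. The count of markers called higher was 13 without WT mouse 2 and 0 without KO mouse 3, and 1 without WT mouse 1 or WT mouse 3. WT mouse 2 was the WT mouse with the most muscle transcript. Of the WT mice it had the highest Gadd45a (3.71 CPM, with 3.65 in WT mouse 3), Eda2r (0.954), Bax (2.44) and Trp53inp1 (68.3). Cdkn1a, Gadd45b, Ccng1, Bbc3 and Phlda3 were highest in WT mouse 3, and Mdm2 in WT mouse 1. With the muscle level of each mouse as a covariate, Gadd45a alone among the members still passed (4.81, adjusted p = 7.68e-05, edgeR), while Eda2r (2.67, adjusted p = 0.0711), Bbc3 (0.60, adjusted p = 0.106), Bax (1.06, adjusted p = 0.18), Phlda3 (-1.11, adjusted p = 0.115) and Ccng1 (-0.43, adjusted p = 0.14) did not. The muscle level (mean log2 CPM of the markers) was -0.71, 3.98 and -0.67 in WT and 3.96, 3.73 and 5.57 in KO mice. It thus followed genotype in all but WT mouse 2. Calls over all genes fell from 5978 to 3502, and the SE of each member called without the covariate grew, that of Bax from 0.34 to 0.54. Of the members called in neither fit, Gadd45b (2.60 against 1.49) and Cdkn1a (0.68 against 0.24) were higher with it and Mdm2 (0.20) and Trp53inp1 (-0.35) lower.

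The macrophage sum was highest in KO mouse 2, which also had the highest Bax and Gadd45b; the Gadd45a maximum was in KO mouse 3. The part of these cells in the values of the members was not tested.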

How the data were processed

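Total BAT RNA of 6 mice was made into QuantSeq 3′ libraries. Per the labels and the study's methods, the authors aligned single-end reads to mm10 with Bowtie2 and counted unique and multiple alignments with bedtools; versions, annotation and use of strand were not given in the sources used here. The deposited files hold raw counts per gene symbol, 1 mouse each. Of 23282 rows, 5588 had no counts and 35 symbols were on more than 1 row; 12995 passed the filter of edgeR (minimum count 10, minimum total 15). Letmd1 KO and WT were compared with edgeR 4.0.16 in R 4.3.3 (TMM, quasi-likelihood test, Benjamini-Hochberg over all genes tested, threshold 0.05), with limma 3.58.1 after quantile normalization and DESeq2 1.42.0 as alternatives, besides other filters, scales and covariates. The code was checked on simulated data, where edgeR recovered 92 of 99 changes of 4-fold and 52 of 97 of 2-fold. A gene that did not pass may therefore still differ. Ratios added 1 count and used exact permutation (scipy 1.17.1). No libraries agreed within sampling noise (chi-square over its degrees of freedom 11.5 to 34.0 between mice of 1 genotype). Positions came from GENCODE (GRCm38) and promoters from RefSeq (GRCm38.p6). Floors cover counting error only.

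The members and lists were chosen with earlier results of these data known. Named were all members, the 6 genes Trp53, Mdm4, Bcl2, Bcl2l1, Eda and Cdkn2a, and, from each list, all tested genes where 6 or fewer were tested and otherwise up to 3 called genes with the highest and 3 with the lowest log2 fold change. Nearest genes were sought for the called member of largest change with a mean of at least 20 counts. Some marker genes are not reported here.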

Additional observations from a re-analysis of the deposited data

How the results depend on the processing

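Across the alternatives, 4842 to 5868 genes passed when 1 mouse was left out, 3502 with the muscle level as a covariate and 3048 with a minimum change of 2-fold, against 5978. Of the members, 7 rose and 1 fell with library size alone, 5 rose and 1 fell with quantile normalization, 2 rose and 2 fell of the 7 with a mean of at least 50 counts, 1 rose and 0 fell with the muscle covariate, and 3 rose and 1 fell at 2-fold. Of all genes tested, 45.4% were higher and 10.5% lower with library size alone, and 20.9% and 23.7% with quantile normalization. At a mean of 50 counts the shares were 25.0% and 23.7%, and with the muscle covariate 13.6% and 13.4%. At 2-fold 23.5% passed in either direction. Leaving out 1 mouse gave 3 to 5 higher and 2 lower, with 18.8% to 22.4% of all genes higher and 17.7% to 21.4% lower. Library size alone moved 81.2% of calls to the higher side, against 51.6%, with a median of all genes of 0.45. The members' median was 0.87 with library size alone, 0.27 at a mean of 50 counts, 0.64 with the muscle covariate, and 0.43 to 0.59 without 1 mouse; 0.59 was without WT mouse 3.

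Trp53inp1 turned positive with library size alone (0.36), quantile normalization (0.086) and a mean of 50 counts (0.0006), and ranged from -0.25 to 0.12 without 1 mouse. The log2 ratio of Mdm2 to Mdm4 differed by -0.057 to 0.098 without 1 mouse. The causes were not tested. Gadd45a kept its call in all 13 alternatives with a test.

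With the replicate number as a block, 5599 genes passed (22.2% higher and 20.9% lower). Of the members 4 rose and 2 fell, the same as without the block. Animals with the same number did not deviate together (correlations 0.069, -0.111 and -0.087, against -0.093 to 0.191 for other numbers). With so few mice per genotype, these correlations cannot decide whether the numbers mark a pairing. The numbers are those of the sample titles, and other labels of the same libraries number the mice differently. Depth limits Eda2r, Bax and Gadd45b, which the mean of 50 counts left out.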

Other observations

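Markers of further cells in the depot are given as values. Of 8 endothelial markers 4 were lower and 0 higher in Letmd1 KO BAT with edgeR (0 higher at an unadjusted p under 0.05; 0 higher and 4 lower with DESeq2, 0 and 3 with limma), with a median log2 fold change of -0.49. With library size alone 1 was higher and 1 lower, with a median of -0.07, where the median of all genes was 0.45, with 45.4% higher and 10.5% lower. With the muscle covariate 1 was lower, and 2 were lower without WT mouse 1, KO mouse 2 or KO mouse 3. Of the 3 lymphocyte markers tested Cd4 (1.70) and Nkg7 (1.59) were higher and Cd3d (-0.19, adjusted p = 0.81) did not pass; Cd4 and Nkg7 each lost their calls without any 1 of 4 mice. The 5 erythroid markers had a median of -0.30 with edgeR and 0.47 with quantile normalization, and 0 passed the threshold with edgeR, DESeq2 or limma on all 6 mice (0 higher and 1 lower at an unadjusted p under 0.05 with edgeR).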
